A study of Mus musculus with 9 samples.

Results

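The lysosomal proteases and the protease inhibitor Cst3 were examined in myeloid cells of the mouse retina, as a set of 10 genes taken by symbol from the 27998 genes in the files. The set held the cysteine proteases Ctss, Ctsb, Ctsl, Ctsz, Ctsc, Ctsh and Lgmn, the aspartic protease Ctsd, the serine protease Ctsa, and Cst3, and all 10 had counts. The cells came from female adult Arr1-/- mice, which lack visual arrestin in every cell and were born and kept in constant darkness. One group stayed in darkness (day 0), and the others were exposed to constant room light of approximately 200 lux for 7 days (day 7) or 20 days (day 20). All groups, the dark controls included, carried the Arr1-/- genotype, so the response of mice with visual arrestin was not measured. Live CD45+ CD11b+ cells were sorted from dissociated retinas, and transcripts were counted from their 3′ ends as unique molecular identifiers (UMIs, one per captured molecule) with 10x Genomics version 2 chemistry. There were 3 libraries per day. Which mice gave which library is not given in the sources used here, so p-values measure only the spread between libraries.

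Cathepsins and legumain are made as inactive precursors, sorted to the lysosome and matured there at acid pH, where they break down the proteins that a phagocyte takes up. In myeloid cells some of them also trim the invariant chain and antigens for MHC class II. Cystatin C, the product of Cst3, is a secreted inhibitor that binds cysteine cathepsins tightly, and its mRNA is among the most abundant in microglia.

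The libraries listed 5022 barcode entries with 1365 different barcodes, and 612 barcodes occurred in more than 1 library, with 270 to 542 shared by each of the 36 pairs of libraries. Each barcode was therefore assigned to its deepest library alone. Of 851 such barcodes past the quality filter, 734 carried more UMIs of myeloid genes than of any other cell type and were kept. They numbered 254, 282 and 198 on days 0, 7 and 20. The libraries held 16 to 193 kept cells and 19773 to 265207 UMIs, and day 7 replicate 3 was the smallest. The assignment was not equally clear in all libraries. With a 4-fold margin in UMIs over the next library, cells fell from 95 to 21 in day 0 replicate 1 and from 73 to 12 in day 7 replicate 2. They fell from 16 to 3 in day 7 replicate 3, from 95 to 50 in day 20 replicate 2 and from 31 to 1 in day 20 replicate 3. Day 0 replicate 2, day 7 replicate 1 and day 20 replicate 1 lost none. Levels are given as CPM (UMI counts scaled to a common library total). The 15 myeloid genes summed to 45161 to 47291 CPM at day 0, 34501 to 40459 at day 7 and 45277 to 53088 at day 20. Every library of day 7 thus lay below those of both other days. These genes had been used to keep barcodes and so do not check the label. Ptprc and Itgam, which encode the sorted proteins CD45 and CD11b and had no part in that choice, were found in 9 of 9 libraries at 49.7 to 213 and 71.6 to 295 CPM. Other markers also moved with the day. Immediate-early and heat shock RNA can mark handling stress, but its source was not tested here. Summed over 13 genes, it lay at 30809 to 41431 CPM before light, 2436 to 5361 after 7 days and 6725 to 18096 after 20 days. The 10 homeostatic microglia genes lay at 6712 to 8085, 2047 to 2428 and 4299 to 5195 CPM. Among them Fcrls went the other way, at 65.6 to 98.9, 438 to 556 and 340 to 923 CPM. The 10 monocyte and macrophage genes lay at 1140 to 1542, 5664 to 11297 and 2853 to 5591 CPM. Most of that sum was Lyz2, with 979 to 1358, 4451 to 9398 and 2324 to 4853 CPM. P2ry12, Cx3cr1, Fcrls and Lyz2 had also been used to keep barcodes. All 3 lists had 0 genes without a UMI, and in bulk sums over such cells a change in the mix of cells and a change of RNA per cell cannot be told apart. Their part in the results on the proteases was not tested.

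The inhibitor was the most abundant member on all 3 days. Over all kept cells Cst3 was the 2nd gene of the transcriptome by UMIs, Ctss the 10th and Ctsd the 13th. UMIs of 3′ ends do not grow with transcript length, so levels of different genes were set side by side without a length correction. Whether capture was equal between genes was not tested, so their order describes UMIs. At day 0 the mean levels ran from Cst3 at 46165 CPM through Ctss (9523), Ctsd (5360), Lgmn (2701), Ctsb (1802), Ctsz (1777), Ctsl (1142), Ctsh (764) and Ctsc (571) to Ctsa at 564 CPM. Ctsb and Ctsz differed there by less than their SDs of 195 and 272 CPM, as did Ctsc and Ctsa (SD 92.9 and 89.4). At day 7 Ctsb stood in the fourth place (3806 CPM), ahead of Ctsz (2032) and Lgmn (1274), and Ctsl was last (532). Ctss and Ctsd were level there, at 7109 and 7108 CPM with SDs of 1482 and 1691. At day 20 the order was Cst3 (28508), Ctss (9648), Ctsd (6516), Ctsb (2449), Lgmn (2366), Ctsz (1964), Ctsl (1084), Ctsh (831), Ctsa (678) and Ctsc (663 CPM). The means of Ctsb, Lgmn and Ctsz lay within the SD of 811 CPM of Ctsb.

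The genes lie on 7 chromosomes of GRCm38, the assembly that mm10 stands for (GENCODE M21 annotation). Cst3 (ENSMUSG00000027447) spans 148871722 to 148875692 on the minus strand of chromosome 2, which also holds Ctsz and Ctsa. Ctss (ENSMUSG00000038642) lies on chromosome 3 from 95526786 to 95556403 on the plus strand, and Ctsb (ENSMUSG00000021939) on chromosome 14 from 63122462 to 63145923 on the plus strand. Ctsl (ENSMUSG00000021477) lies on chromosome 13 from 64359337 to 64370890 and Lgmn (ENSMUSG00000021190) on chromosome 12 from 102394084 to 102439813, both on the minus strand. Ctsd (ENSMUSG00000007891) spans 142375911 to 142388038 on the minus strand of chromosome 7, which also holds Ctsc, and Ctsh is on chromosome 9. All 10 are protein-coding genes.

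RefSeq promoter windows, which run from 250 bases before to 50 bases after a start listed for a gene (GRCm38.p6), were matched to members by symbol. Of the 10 members, 8 had a window, and Ctsb and Ctsh had no entry. They were searched for CACGTG, the core of the E-box to which TFEB, TFE3 and MITF, regulators of lysosomal genes, are known to bind. It reads the same on both strands. The motif occurred in 1 window each of 4 members (Ctsl, Lgmn, Ctsd and Ctsa), out of 10 windows of the 8 members. It occurred in 7.15% of all 32851 windows. The motif was chosen after other motifs had been looked at, and a match is a description of the letters, not a binding site. Ctsd and Ctsa had 2 matches each. The promoters of the 3 members that were lower at day 7 and of Ctsd are shown 5′ to 3′ with the motif in capitals. Counted from the start used for each window, it began at −236 in Ctsl, at −49 in Lgmn, and at −245 and −98 in Ctsd. The Ctsl and Lgmn windows shown lie inside the GENCODE genes, whose starts on the minus strand are at 64370890 and 102439813. The second window of Lgmn, 102439679 to 102439978, spans the GENCODE start and has 0 matches, and the Cst3 window has 0.
Cst3 (chr2:148875463-148875762, minus strand): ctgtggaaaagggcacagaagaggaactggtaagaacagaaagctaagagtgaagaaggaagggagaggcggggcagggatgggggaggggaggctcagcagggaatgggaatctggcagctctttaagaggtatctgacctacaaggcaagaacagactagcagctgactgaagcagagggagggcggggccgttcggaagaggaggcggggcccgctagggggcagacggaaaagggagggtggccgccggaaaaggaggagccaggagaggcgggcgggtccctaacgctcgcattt
Ctsl (chr13:64370471-64370770, minus strand): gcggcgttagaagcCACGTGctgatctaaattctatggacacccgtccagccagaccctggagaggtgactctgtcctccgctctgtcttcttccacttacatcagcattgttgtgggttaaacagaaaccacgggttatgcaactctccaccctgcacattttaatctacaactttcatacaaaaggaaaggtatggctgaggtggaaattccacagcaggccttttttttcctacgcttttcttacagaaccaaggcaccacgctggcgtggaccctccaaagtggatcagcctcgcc
Lgmn (chr12:102439043-102439342, minus strand): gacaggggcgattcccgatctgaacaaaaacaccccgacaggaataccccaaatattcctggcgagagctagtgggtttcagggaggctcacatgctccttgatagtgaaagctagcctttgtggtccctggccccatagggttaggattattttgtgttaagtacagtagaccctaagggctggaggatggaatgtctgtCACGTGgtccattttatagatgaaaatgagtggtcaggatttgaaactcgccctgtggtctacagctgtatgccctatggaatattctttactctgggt
Ctsd (chr7:142387778-142388077, minus strand): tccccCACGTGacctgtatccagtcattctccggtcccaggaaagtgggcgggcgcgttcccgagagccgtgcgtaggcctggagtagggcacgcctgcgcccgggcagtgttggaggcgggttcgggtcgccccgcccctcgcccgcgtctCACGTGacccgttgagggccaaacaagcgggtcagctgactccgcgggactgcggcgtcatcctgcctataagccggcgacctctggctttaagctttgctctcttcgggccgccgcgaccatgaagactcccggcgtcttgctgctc

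Cst3 RNA fell between day 0 and day 7 and was higher again at day 20. Its level was 46176, 49192 and 43126 CPM in the dark libraries, 9287, 8334 and 10014 CPM after 7 days of light, and 25220, 30661 and 29643 CPM after 20 days. The 3 days did not overlap: every library of day 7 lay below every library of day 20, and these lay below every library of day 0. At day 7 the fitted log2 change from day 0 was −2.22 (SE 0.21, adjusted p = 8.85e-06, edgeR's quasi-likelihood test with Benjamini-Hochberg adjustment over 1395 genes), and the mean level at day 0 was 5.01-fold that at day 7. Between day 7 and day 20 it rose by 1.53 (SE 0.21, adjusted p = 0.000849). The difference between day 20 and day 0, −0.69 (SE 0.20, 95% confidence interval −1.12 to −0.26), missed the threshold over all genes (adjusted p = 0.0715, edgeR), and the mean at day 0 was 1.62-fold that at day 20. Without day 7 replicate 3 this last difference was −0.64 with an adjusted p of 0.0206 (edgeR), and DESeq2 gave 0.0185. In the counts as deposited, with barcodes left in every library that listed them, the change at day 7 was −0.89 (adjusted p = 0.0198) and the rise to day 20 was 0.47 (adjusted p = 0.708, edgeR).

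**Figure D1:**
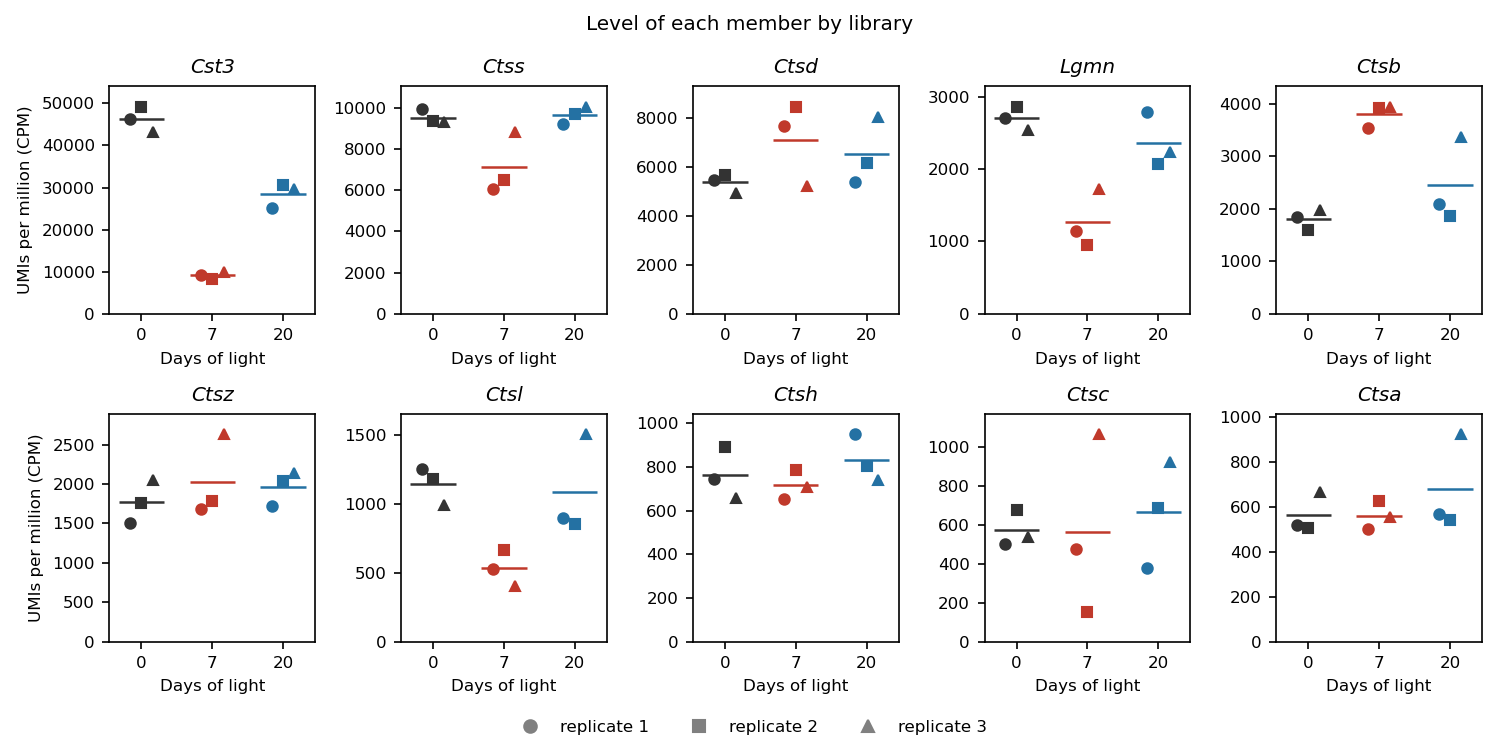
UMI counts scaled to a common library total (CPM, vertical axes from 0, 1 scale per gene) of each member against days of light, with a point for each library and a line for the mean of 3 libraries. Cst3 shows 3 separate levels by day, whereas Ctsz, Ctsh, Ctsc and Ctsa overlap between days.

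The members were also found in barcodes that were left out. Of these, 81 had at least as many UMIs of the rod and cone photoreceptor list as of the myeloid list (rod barcodes). They numbered 69, 8 and 4 on days 0, 7 and 20. The rule does not require them to be free of myeloid transcripts, so a rod barcode may hold a mixture. The rod barcodes of day 0 held 8172 CPM of Cst3, 17.4% of the 46848 CPM in the summed kept cells of that day. For the 9 proteases this percentage ran from 8.55% (Ctsh) to 24.9% (Ctsb). The level of Cst3 in the kept cells of day 7 was thus near its level in the rod barcodes of day 0. The source of these UMIs in rod barcodes, and its part in the values of day 7, was not tested.

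Lgmn and Ctsl were the proteases that fell at day 7. Lgmn encodes legumain, which cuts after asparagine and helps to mature other cathepsins. Its level was 2704, 2863 and 2536 CPM in the dark, 1146, 955 and 1720 CPM after 7 days, and 2784, 2072 and 2242 CPM after 20 days. All libraries of day 7 lay below all libraries of both other days. The log2 change at day 7 was −1.04 (SE 0.26, adjusted p = 0.0102, edgeR). The value from day 7 to day 20 was 0.85 (SE 0.27, adjusted p = 0.0789) and that from day 0 to day 20 was −0.18 (adjusted p = 0.744, edgeR). The change at day 7 was past the threshold in 7 of the 9 fits that left out 1 library, and missed it without day 7 replicate 1 (adjusted p = 0.063) or replicate 2 (0.0839, edgeR). Without day 7 replicate 3 the rise to day 20 was past it (1.01, adjusted p = 0.0176, edgeR). In the counts as deposited the change of Lgmn at day 7 was −0.23 (adjusted p = 0.523, edgeR).

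Ctsl encodes cathepsin L, an endopeptidase. It had 1254, 1177 and 995 CPM in the dark, 524, 666 and 405 CPM after 7 days, and 898, 850 and 1503 CPM after 20 days. The libraries of day 7 lay below all others. Its log2 change at day 7 was −0.94 (SE 0.29, adjusted p = 0.0289, edgeR). The call was the least firm of the 4, since it held in 2 of the 9 fits that left out 1 library (without day 20 replicate 2 or 3), and in the other 7 the adjusted p ran up to 0.133 (edgeR, without day 7 replicate 1). From day 7 to day 20 the value was 0.84 (SE 0.30, adjusted p = 0.145, edgeR). In the smallest library, day 7 replicate 3, Ctsl had 8 UMIs and Lgmn 34. In the counts as deposited the change of Ctsl at day 7 was −0.0964 (adjusted p = 0.825, edgeR).

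Ctsb, which encodes cathepsin B, rose at day 7. It had 1835, 1593 and 1979 CPM in the dark, 3544, 3928 and 3945 CPM after 7 days, and 2101, 1870 and 3376 CPM after 20 days. The libraries of day 7 lay above those of day 0 and of day 20. The log2 change at day 7 was 1.18 (SE 0.26, adjusted p = 0.00355, edgeR), and it was past the threshold in 9 of 9 fits that left out 1 library. In the counts as deposited it was 0.60 (adjusted p = 0.0949, edgeR). The value from day 7 to day 20 was −0.75 (SE 0.26, adjusted p = 0.116) and that from day 0 to day 20 was 0.43 (adjusted p = 0.417, edgeR).

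Ctss encodes cathepsin S, which stays active at neutral pH and is the main protease of the invariant chain in antigen-presenting cells. It had 9917, 9360 and 9292 CPM in the dark, 6033, 6494 and 8800 CPM after 7 days, and 9225, 9672 and 10048 CPM after 20 days. The libraries of day 7 lay below the others, but the log2 difference from day 0 was −0.32 (95% confidence interval −0.79 to 0.14, adjusted p = 0.291, edgeR) and did not pass the test. Ctsd encodes cathepsin D, the main aspartic endopeptidase of the lysosome. It had 5475, 5675 and 4930 CPM in the dark, 7662, 8453 and 5209 CPM after 7 days, and 5378, 6152 and 8017 CPM after 20 days. Day 7 replicate 3 lay among the libraries of day 0. The log2 difference at day 7 was 0.53 (95% confidence interval 0.01 to 1.04, adjusted p = 0.119, edgeR), and without that library it was 0.80 (adjusted p = 0.00543).

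The remaining members cut from the ends of proteins. Ctsz and Ctsa encode carboxypeptidases, and Ctsc and Ctsh encode aminopeptidases, cathepsin C being the enzyme that activates granule serine proteases. Their libraries overlapped between every pair of days. Ctsz ran from 1511 to 2630 CPM over the 9 libraries, Ctsh from 656 to 949 and Ctsa from 501 to 923. Ctsc varied most, from 149 CPM in day 7 replicate 2 to 1062 CPM in day 7 replicate 3, where it rested on 15 and 21 UMIs. The log2 differences of these 4 genes between days lay between −0.17 and 0.35, with adjusted p values of 0.452 or more (edgeR). For Ctsc the interval at day 7 ran from −1.21 to 0.86, so these libraries leave room for a change of more than 2-fold downward.

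Over the 10 members, 4 passed the test between day 0 and day 7, Ctsb upward and Cst3, Lgmn and Ctsl downward, while 26.6% of all 1395 genes tested did (10.1% higher and 16.5% lower). The median log2 difference of the members was −0.08, beside −0.07 for all genes. Libraries of the 2 days did not overlap for 5 members, and for 38.1% of all genes. From day 0 to day 20, 0 members passed (edgeR), 1 had an unadjusted p under 0.05 and 1, Cst3, passed in DESeq2. Libraries did not overlap for 1 member, again Cst3, beside 26% of all genes. Of all genes, 2.87% passed there (1.15% higher, 1.72% lower), and 229 had an unadjusted p under 0.05. From day 7 to day 20, 1 member passed, Cst3, beside 5.45% of all genes (4.3% higher, 1.15% lower). There, 5 members did not overlap between the days, beside 19.8% of all genes, and 4 of these 5 were higher at day 20. The comparisons share libraries, so their results are not independent of each other.

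**Figure D2:**
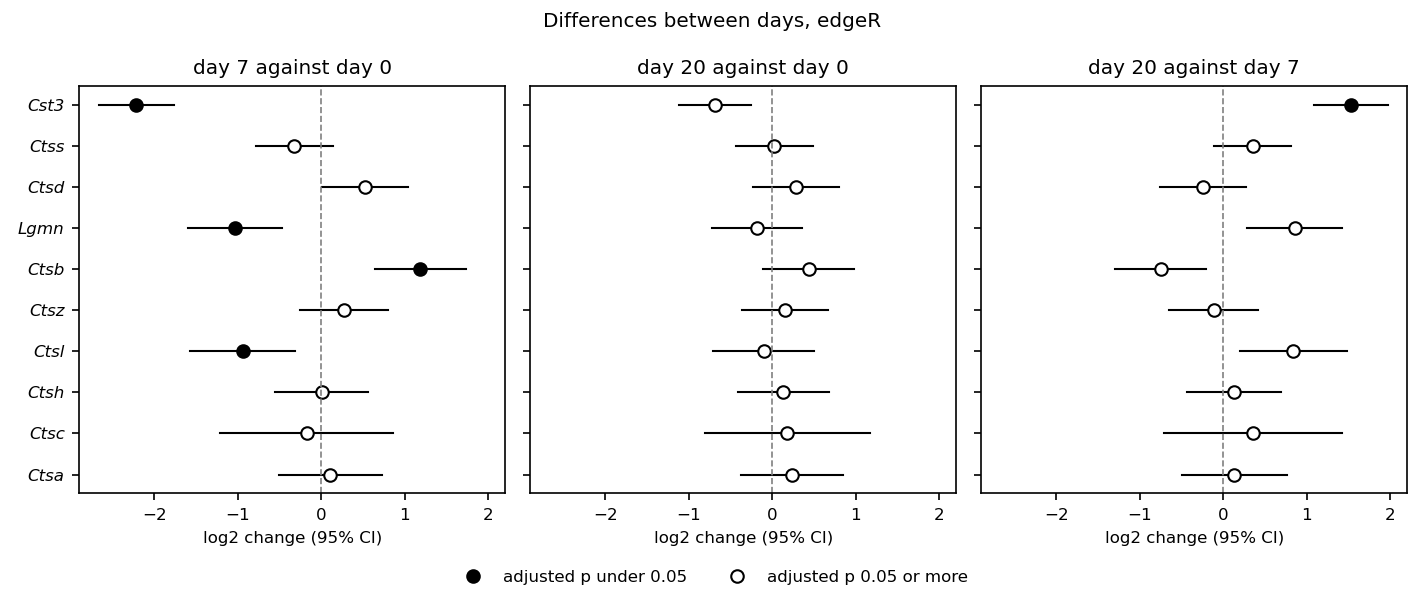
Fitted log2 change of each member (horizontal axis) with its 95% confidence interval for each pair of days, where filled points passed the test. Cst3, Lgmn and Ctsl lie left of 0 and Ctsb right of 0 at day 7 against day 0, 0 points are filled at day 20 against day 0, and Cst3 alone is filled at day 20 against day 7.

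Proteases and inhibitor parted. Summed over the 9 proteases, the share of all UMIs was 2.42% ± 0.05, 2.37% ± 0.14 and 2.62% ± 0.32 on days 0, 7 and 20 (SD over 3 libraries). The single libraries ran from 2.36% to 2.45%, from 2.22% to 2.50% and from 2.40% to 2.99%, so the days overlapped. Within that sum Ctsb rose while Lgmn and Ctsl fell at day 7, as given above. The more abundant Ctss and Ctsd, which did not pass, went from means of 9523 to 7109 CPM and of 5360 to 7108 CPM. Cst3 itself made up 4.62% ± 0.30, 0.921% ± 0.084 and 2.85% ± 0.29 of all UMIs. For each protease UMI there were 1.91 ± 0.09 UMIs of Cst3 in the dark, 0.389 ± 0.035 after 7 days and 1.09 ± 0.13 after 20 days. The libraries of the 3 days did not overlap in this ratio, which ran from 0.350 in day 7 replicate 2 to 2.01 in day 0 replicate 2. The 9 proteases include Ctsd and Ctsa, which are not cysteine proteases, so this is not a ratio of the inhibitor to its targets. Ratios of RNA do not give ratios of protein or of activity.

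**Figure D3:**
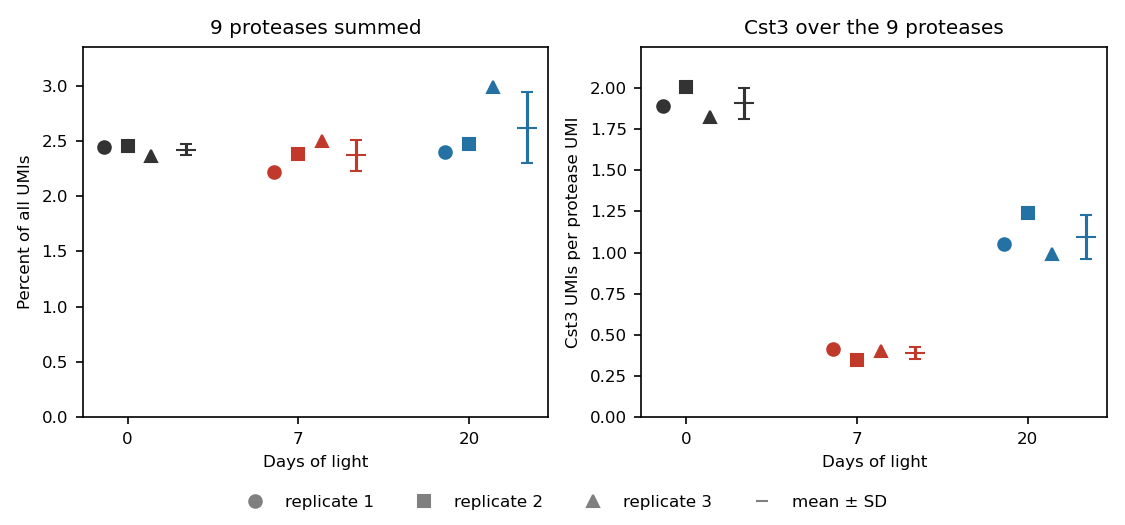
Summed share of the 9 proteases among all UMIs (left, percent) and Cst3 UMIs per protease UMI (right) against days of light, with a point per library and the mean ± SD of 3 libraries. The left panel shows overlapping days near 2.4%, and the right panel shows 3 separate levels.

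The same difference was seen cell by cell. To compare cells of unequal depth, each cell was thinned at random to 500 UMIs, which 609 of the 734 cells reached (209, 250 and 150 on the 3 days). The median cell held 24, 25 and 27 Cst3 UMIs in the dark libraries, 4, 3 and 3 after 7 days, and 6, 9 and 10 after 20 days. At day 0 the 10th percentile of cells lay at 8 or more Cst3 UMIs in each library, and at day 7 the 90th percentile lay at 11 to 14. At day 20 the 90th percentile reached 21.8 to 33.5 and the 10th percentile lay at 2 to 2.5, so cells were spread over much of the range between both earlier days. Cells with more Cst3 UMIs than protease UMIs made up 84.8% ± 4.5, 11.2% ± 1.9 and 47.0% ± 6.4 on days 0, 7 and 20 (SD, n = 3). A cell held UMIs of 4.5 ± 0.1, 4.3 ± 0.3 and 4.2 ± 0.3 different proteases on average.

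**Figure D4:**
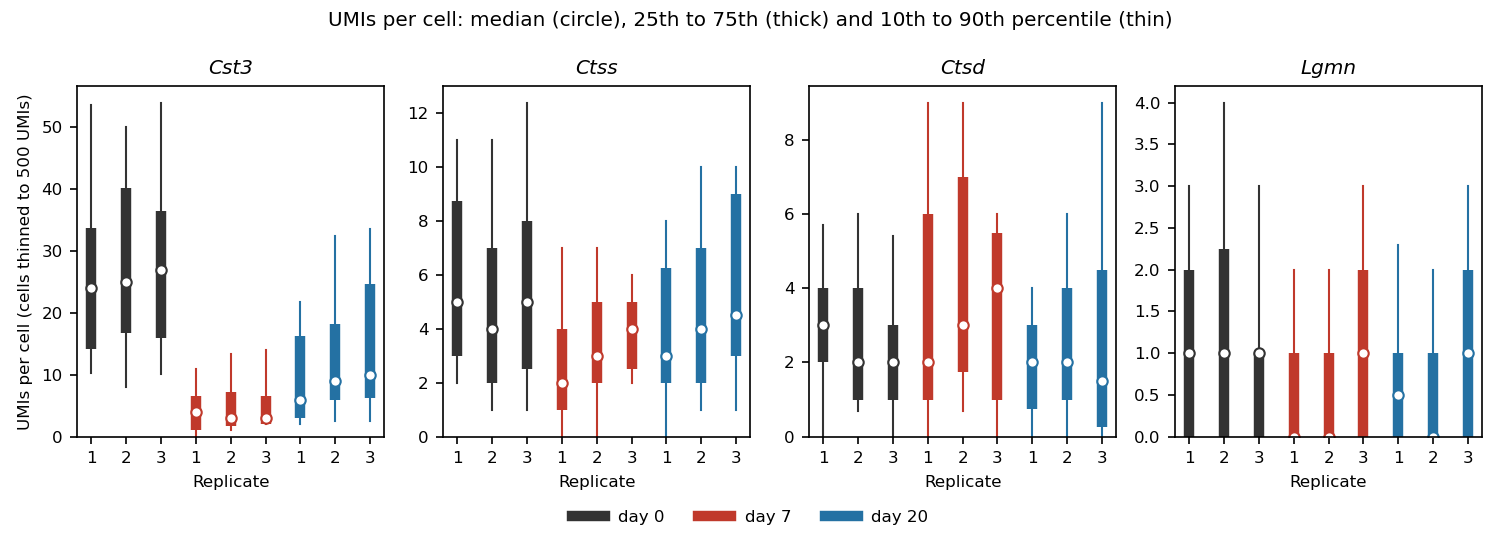
UMIs per cell of Cst3, Ctss, Ctsd and Lgmn (vertical axes, cells thinned to 500 UMIs) in each library, with the median as a circle, the 25th to 75th percentile as a thick bar and the 10th to 90th as a thin line. The medians of Cst3 are 24 to 27 in the dark, 3 to 4 after 7 days and 6 to 10 after 20 days.

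Shares of cells with at least 1 UMI, at 500 UMIs per cell, followed the levels for the proteases that fell. Ctsl was found in 34.6% ± 1.9, 15.6% ± 5.7 and 32.6% ± 6.9 of cells on days 0, 7 and 20 (SD, n = 3). Day 7 replicate 3 held 11 cells at this depth, 1 of them with a Ctsl UMI. Lgmn was found in 62.7% ± 4.6, 42.5% ± 10.8 and 53.0% ± 7.5, and Ctsb in 58.1% ± 8.2, 69.1% ± 4.9 and 53.6% ± 4.8 of cells. Cst3 was found in 98.6% ± 2.5, 89.7% ± 2.3 and 97.1% ± 0.9, and Ctss in 95.2% ± 3.6, 87.6% ± 3.7 and 90.2% ± 3.9. Ctsd was found in 88.3% ± 1.3, 85.4% ± 4.0 and 75.2% ± 2.3. Its share at day 20 thus did not follow its mean level, which was 5360 CPM at day 0 and 6516 CPM at day 20. At 1000 UMIs per cell the shares of Ctsd were 97.7%, 93.9% and 92.2%. In the 66 rod barcodes of at least 500 UMIs (median depth 1121 UMIs before thinning, against 917 in the kept cells) the share was 95.5% for Cst3, 40.9% for Ctss, 39.4% for Ctsd, 22.7% for Lgmn, 21.2% for Ctsb and 3.03% for Ctsl. In 13 barcodes of at least 500 UMIs left out on the Muller glia and astrocyte list, it was 61.5% for Cst3 and 38.5% for Ctsl. The other shares there were 46.2% for Ctsb, 38.5% for Ctsd, 23.1% for Ctss and 7.69% for Lgmn. The share of cells with a Cst3 UMI therefore cannot be read as the share that expressed it. At day 7 it lay below the share in rod barcodes, but these were pooled over days, with 69 of all 81 from day 0 and 8 from day 7. The shares of Ctsl differed between settings. At 1000 UMIs per cell they were 62.8%, 31.2% and 40.2% on days 0, 7 and 20, and without thinning 54.9%, 35.3% and 37.4%. The share at day 20 thus lay near that of day 0 at 500 UMIs but not in these settings. At 1000 UMIs the day 20 libraries held 17, 35 and 11 cells and day 7 replicate 3 held 8. Without thinning the depth was unequal, with median UMIs of 836 to 1074 in libraries of day 0 and 625.5 to 866 at day 20. In the counts as deposited the difference for Ctsl between day 7 and day 0 was −1.17 percentage points.

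MHC class II, the receptor that shows peptides cut by these enzymes, was rare in the cells of day 0. After thinning, cells with at least 2 UMIs of H2-Aa, H2-Ab1 and H2-Eb1 together (MHCII-positive) made up 2.27% to 4.26% of a dark library, 20.6% to 54.5% of a day 7 library and 14.5% to 33.3% of a day 20 library. The highest share, 54.5%, was 6 of 11 cells in day 7 replicate 3. MHCII-positive cells were compared with cells of the same library that had 0 (MHCII-negative). This used the 4 libraries of days 7 and 20 that held at least 10 cells of each class. Of 491 genes tested, 4 passed (0.815%): H2-Aa, H2-Ab1 and H2-Eb1, which set the classes, and Cd74, the invariant chain. None of the 10 members passed in edgeR, while 3 had an unadjusted p under 0.05, as had 44 of all genes, and DESeq2 called 1 member.

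That member was Ctsd. It had 5046 CPM in MHCII-positive and 9970 CPM in MHCII-negative cells of day 7 replicate 1, and 3062 and 9471 CPM in day 7 replicate 2. At day 20 the values were 2492 and 7405 CPM in replicate 1 and 3842 and 6292 CPM in replicate 2. Ctsd was lower in the positive cells of 4 of 4 libraries, with a log2 difference of −1.19 (SE 0.24, 95% confidence interval −1.74 to −0.63, adjusted p = 0.0799, edgeR). The adjusted p was 0.0106 in DESeq2, and 0.00029 without day 20 replicate 1 and 0.0305 without day 20 replicate 2 (edgeR). It was 0.309 and 0.313 without day 7 replicates 1 and 2. The difference was −0.44 (adjusted p = 0.822) with at least 1 MHCII UMI for a positive cell, and −0.56 (adjusted p = 0.42) at 1000 UMIs per cell (edgeR). At 1000 UMIs only day 7 replicates 1 and 2 held at least 10 cells of each class. That fit therefore differs in libraries as well as in depth. Over all 11 alternatives 5 passed for Ctsd (edgeR and DESeq2). Ctsc had 651 against 334, 148 against 102, 712 against 242 and 1048 against 533 CPM in these libraries, higher in the positive cells of 4 of 4, on 3 to 67 UMIs per value. Its log2 difference was 1.09 (SE 0.30, adjusted p = 0.182, edgeR). In the fit at 1000 UMIs per cell, which held those 2 day 7 libraries alone, it was −0.28 (adjusted p = 0.948, edgeR). The log2 difference of Lgmn, lower in 4 of 4 libraries, was −0.73 (SE 0.25, adjusted p = 0.303, edgeR). Ctsl was also lower in 4 of 4, with −0.72 (SE 0.37, adjusted p = 0.648, edgeR). How many of all tested genes agreed in 4 of 4 libraries was not counted, so such agreement is description only. For Ctss, the protease of the invariant chain, the difference was −0.38 (95% confidence interval −0.95 to 0.18, adjusted p = 0.738, edgeR).

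Cst3 had about the same level in both classes at day 7, with 9897 CPM in positive and 9454 CPM in negative cells of replicate 1 and 7901 and 9368 CPM in replicate 2. At day 20 it had 9610 and 31156 CPM in replicate 1 and 19350 and 33253 CPM in replicate 2. The class difference was −0.03 at day 7 and −1.24 at day 20 on the log2 scale. The difference between them, −1.20 (SE 0.46), had an unadjusted p of 0.0291 and an adjusted p of 0.858 over 491 genes (edgeR), and so did not pass. In MHCII-negative cells alone, Cst3 still fell at day 7 (−2.55, adjusted p = 9.43e-05) and rose to day 20 (1.93, adjusted p = 0.00114, edgeR). Of 940 genes tested in those cells, 247 passed at day 7. The log2 changes there were −1.50 for Lgmn (adjusted p = 0.00734), −0.74 for Ctss (0.0363), −1.43 for Ctsc (0.0405) and 1.16 for Ctsb (0.00674, all edgeR). Ctsc rested on 22 and 5 UMIs in the MHCII-negative cells of day 7 replicates 1 and 2. Ctsl was at −0.998 (adjusted p = 0.0679, edgeR) and did not pass, and day 7 replicate 3 held only 4 MHCII-negative cells. In cells with under 1% immediate-early and heat shock UMIs, 82 of 934 genes passed at day 7. There Cst3 changed by −2.59 (adjusted p = 3.8e-06) and Ctsb by 1.03 (0.0196), while Lgmn was at −0.71 (0.172) and Ctsl at −0.74 (0.25, edgeR).

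**Figure D5:**
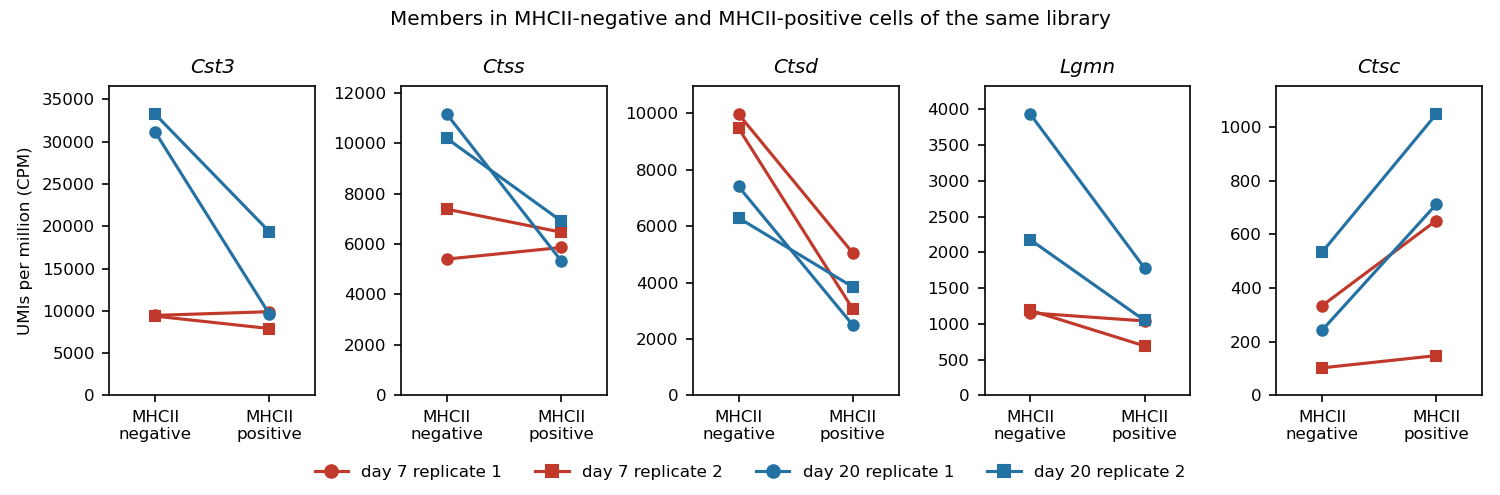
CPM of 5 members (vertical axes from 0) in the MHCII-negative and MHCII-positive cells of the 4 libraries compared, where a line joins the classes of 1 library. In these classes Ctsd falls and Ctsc rises along all 4 lines, and Cst3 is level at day 7 and falls at day 20.

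Among 92 other lysosomal genes listed by role and present in the files, 41 had enough counts to be tested between days. At day 7 against day 0, 6 of the 41 rose and 3 fell, beside 10.1% and 16.5% of all genes, with a median log2 difference of 0.15 beside −0.07. Of the 28 hydrolases of sugars, sulfates, lipids and phosphates, 11 were tested, of which 1 rose, Acp5, and 2 fell, Arsb among them. Acp5, tartrate-resistant acid phosphatase, had 0, 57 and 25 UMIs on days 0, 7 and 20. It was at least 22.0-fold higher after 7 days and at least 13.5-fold higher after 20 days, against a floor of 3 counts over the group of day 0. These bounds are for UMIs summed over a day and do not hold for each library. Its mean level was 155 ± 52 CPM at day 7 and 75.8 ± 70.4 CPM at day 20 (SD, n = 3), so the libraries of day 20 differed widely.

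Of 12 activators and membrane proteins tested, Cd63 and the cholesterol carrier Npc2 rose and Tmem55b fell at day 7. Cd63, a tetraspanin of late endosomes, went from 380 ± 71 CPM to 1180 ± 325 at day 7 and 1059 ± 182 at day 20, with log2 changes of 1.80 (adjusted p = 0.000356) and 1.48 (adjusted p = 0.00996, edgeR) from day 0. Tmem55b changed by −2.02 (adjusted p = 0.0112) and Arsb by −1.64 (adjusted p = 0.026, edgeR), on 10 and 17 UMIs at day 7. Among 10 subunits of the proton pump, which acidifies the lysosome, Atp6v1g1 and Atp6v0e rose and 0 fell. Of 3 other protease inhibitors tested, 1 rose: Cstb, cystatin B, an inhibitor inside the cell, went from 149 ± 38 to 363 ± 62 CPM and then to 174 ± 37 CPM, with a log2 change of 1.44 at day 7 (SE 0.31, adjusted p = 0.00375, edgeR). The 2 other cathepsins and related proteases and the 3 sorting and regulation genes that could be tested had 0 calls. At day 20 against day 0, Acp5 and Cd63 were the only calls among the 41, both upward, and between the MHCII classes 0 of 19 tested genes were called (edgeR).

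Over the 9 libraries, the genes whose levels lay closest to those of Cst3, by the root mean square difference of centred log2(CPM + 1), were Cd81 (0.246), Anxa3 (0.263) and Ptgs1 (0.280). Cd81 had 3458 ± 203, 929 ± 206 and 2643 ± 202 CPM on days 0, 7 and 20 (SD, n = 3). For Ctsl they were Tecr (0.144), Rab3il1 (0.169) and Trem2 (0.263), and Trem2 had 1910 ± 50, 1240 ± 275 and 1804 ± 267 CPM (SD, n = 3). Trem2 was also among the myeloid genes used to keep barcodes. The libraries differ in depth and in the marker lists given above, and the likeness is a ranking with no test.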

How the data were processed

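Single-cell 3′ RNA was measured in 9 libraries of sorted retinal CD45+ CD11b+ cells, 3 per day of light. The authors deposited raw UMI counts per gene and cell barcode, made with Cell Ranger and mm10 per the labels (version not given in the sources used here). Sample titles give hours where treatment labels give days, and days were used. Cells needed 200 or more detected genes, less than 10% mitochondrial UMIs, and more UMIs of myeloid markers than of each other cell type, and were taken from the deepest library of their barcode, and no doublet caller was run. Counts were summed per library and tested with edgeR 4.0.16 (TMM, quasi-likelihood, filterByExpr minimum count 10, all 9 libraries in 1 fit, Benjamini-Hochberg threshold 0.05), or with a library term between MHCII classes. DESeq2 1.42.0 and the other alternatives are given in the closing section. Scripts were tested on simulated data. The members and gene lists were chosen with earlier results of these data known. Named genes were the 10 members and, per comparison, up to 3 listed lysosomal genes called with the largest change in each direction. Other called genes of those lists were named after their values were seen. The values of 1 listed gene are not reported here. CPM are counts scaled to the summed UMIs of the kept cells of a library. Levels rest on 19773 to 265207 UMIs per library, floors cover counting error only, and the seed of the thinning was 7. Of the 27998 gene identifiers, 98.7% were in GENCODE M21. Promoter sequences are RefSeq, GRCm38.p6.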

Additional observations from a re-analysis of the deposited data

Results flagged for a closer look

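The change of Cst3 after light differed between the time points: relative to the same dark libraries it was 1.53 higher on the log2 scale at day 20 than at day 7 (adjusted p = 0.000849, edgeR), and all 3 libraries of day 20 lay above all 3 of day 7.

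Between MHCII classes, 1 of the 4 libraries stood apart from the rest for Ctsa. In day 20 replicate 1 the log2 difference between positive and negative cells was −1.81, from 4 and 31 UMIs, whereas the other libraries lay between −0.21 and 0.04. About 1 in 20 groups is expected to stand apart in this way by chance, and 10 members were looked at.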

How the results depend on the processing

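The number of genes called between day 0 and day 7, 371, became 77 in the counts as deposited, 109 with barcodes at least 4 times deeper in their best library, 183 with all barcodes past the quality filter, 216 with no filter on low counts, 247 in MHCII-negative cells and 82 in cells low in immediate-early RNA. Without 1 library at a time it ran from 199 (without day 7 replicate 2) to 532, and was also low without day 7 replicate 1 (205) and day 0 replicates 1 (244) and 2 (223). Between day 0 and day 20, 40 calls became 0 as deposited (218 genes at an unadjusted p under 0.05), 24 with the 4-fold margin, 14 with at least 500 detected genes, 22 in MHCII-negative cells and 22 in cells low in immediate-early RNA, and 28 to 52 without 1 library. Between day 7 and day 20, 76 became 0 as deposited (147 genes at an unadjusted p under 0.05), 28 with the margin, 12 with all barcodes, 34 with no filter and 16 in cells low in immediate-early RNA, and ran from 13 (without day 7 replicate 1) to 96, with 21 without day 7 replicate 2 and 29 and 36 without day 20 replicates 1 and 2. Between MHCII classes, 4 became 137 as deposited, of 882 genes tested (64 higher, 73 lower). In that setting a barcode can count in more than 1 library, so the libraries are not independent. Among the 137 were Cst3, Ctsd, Lgmn and Ctsl, lower in positive cells, and Ctsc, higher. The 4 became 9 in DESeq2 (7 higher, 2 lower) and 11 with no filter, and 4 to 20 without 1 library, the 20 without day 20 replicate 1. The cause was not tested. The MHCII-negative and low immediate-early settings were chosen after seeing the data. The 4-fold margin left 1 cell in day 20 replicate 3 and 3 cells in day 7 replicate 3.

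Cst3 at day 7 against day 0 was past the threshold in 20 of 20 alternatives (log2 change −2.59 to −0.89), Ctsb in 16, Lgmn in 13 and Ctsl in 7. All 4 kept their sign in 20 of 20, but in the counts as deposited Lgmn shrank to −0.23 and Ctsl to −0.0964. The rise of Cst3 from day 7 to day 20 was past it in 17 of 20, and missed it as deposited (0.47), with the margin (1.06) and with no filter (1.45). Cst3 at day 20 against day 0 was past it in 5 of 20. Same-numbered libraries had correlations of −0.04 to 0.13, so the numbers were not taken as pairs. With the replicate block, 362, 43 and 63 genes were called in the 3 comparisons of days, and among the members the block changed 1 call, Cst3 at day 20 against day 0 (−0.69, adjusted p = 0.0423, edgeR).

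With all barcodes past the quality filter, the summed share of the proteases was 2.00% at day 0 and 2.01% at day 7. Differences in the share of cells with a UMI between day 7 and day 0, in percentage points, moved at 1000 UMIs per cell to −2.50 (Ctss), −31.5 (Ctsl), −7.45 (Ctsz), −22.0 (Ctsc), −10.7 (Ctsh) and −9.48 (Ctsa), and in the counts as deposited to −1.17 (Ctsl), −5.52 (Lgmn) and 2.09 (Ctsd). Of these, Ctsz, Ctsc, Ctsh and Ctsa had positive differences at 500 UMIs, so no direction was read from them.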
